A study of Mus musculus with 8 samples.

Results

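The comparison described here sets embryonic stem cells that overexpressed a mutated CTCF against cells that overexpressed wild-type CTCF, both after 12 h of the auxin IAA. It uses 4 of the 8 libraries of the series, chosen by their sample titles: 2 libraries of the line with wild-type CTCF (called wild-type libraries below) and 2 of the line with mutated CTCF (mutated libraries). All 8 libraries came from E14 mouse embryonic stem cells whose own CTCF carries an auxin-inducible degron (AID), so every group shares the degron allele. The other 4 libraries were 2 of a control overexpression line without IAA and 2 of that line after 12 h of IAA. They enter here through the shared estimate of the spread, through minimum means taken over all 8 libraries, and as levels and comparisons for reference. The labels do not name the mutation, the promoter of the overexpression construct or whether a line is 1 clone, and they do not say whether the 2 libraries of a group came from separate cultures. The p-values therefore measure only the spread between these libraries, pooled over the 4 groups and drawn in part from other genes of similar level. Cells grew on gelatin in serum-free medium with leukemia inhibitory factor, the MEK inhibitor PD0325901 and the GSK3 inhibitor CHIR99021, per the labels. New RNA was labelled for 15 min with 400 µM 4-thiouridine before extraction.

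CTCF is a zinc-finger protein that binds a long DNA motif and stops cohesin as it extrudes chromatin loops, so it sets the borders of topological domains and brings some enhancers to promoters. The degron lets a plant-type ubiquitin ligase remove the tagged protein once auxin is added, and an added CTCF without the tag can stand in for it. Transient transcriptome sequencing (TT-seq) captures RNA made during a short pulse and so reads ongoing transcription along a gene, introns included, more than the stored mRNA. In bulk libraries such as these, fewer cells that transcribe a gene and less transcription per cell cannot be told apart. The counting step's strand setting is not given in the sources used here, so values of overlapping and antisense genes are uncertain, and so are those of near-identical gene copies.

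Values are normalized reads per gene, as the authors deposited them. Each fold change is the mutated over the wild-type libraries on the log2(value + 1) scale, with its standard error (SE) and an adjusted p-value from limma with Benjamini-Hochberg adjustment over 15818 genes. A gene is called higher or lower where that adjusted p was under 0.05. Of the 15818 genes, 5489 (34.7%) were called: 2572 (16.3%) were higher and 2917 (18.4%) were lower with mutated CTCF. At least 2-fold differences were fewer, with 195 genes (1.23%) higher and 417 (2.64%) lower; a pseudocount of 10 gave 56 and 199, and DESeq2 109 and 280. Most differences were small, since 64.7% of the called genes lay under 0.5 on the log2 scale and the median size of a called difference was 0.35. The median over all tested genes was -0.0087 and the median SE was 0.10. Genes at least 2-fold lower had a median of 32.8 normalized reads and those at least 2-fold higher one of 24.4, against 249 over all tested genes. Among genes with a mean of at least 50 normalized reads, 148 were at least 2-fold lower and 53 at least 2-fold higher.

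Depth ran from 18247323 to 21561141 recovered reads in the 4 libraries compared. The wild-type pair differed more than the mutated pair (chi-square per degree of freedom 3.35 against 1.65 over the recovered reads), and several gene groups with small shifts moved with wild-type replicate 2. Without wild-type replicate 1, 1912 genes were higher and 2963 lower, and without wild-type replicate 2, 2313 and 1953. Markers of mouse embryonic stem cells were present throughout: all 34 genes of the naive pluripotency list were measured. Of 16 fibroblast markers 13 were not listed, and of 24 markers of the 2-cell-like state 23 were not listed.

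The 12 lowest genes with a mean of at least 50 were of several functions. Cyp1a1, a cytochrome P450 induced through the aryl hydrocarbon receptor, had 292 and 313 normalized reads in the wild-type libraries and 29.3 and 31.6 in the mutated libraries (log2 fold change -3.27, SE 0.18, adjusted p = 1.37e-17). Wls, the carrier that brings Wnt proteins to the cell surface, had 306 and 356 against 60.6 and 68.2 (log2 fold change -2.34, SE 0.12, adjusted p = 9.09e-19). Ebf1, a transcription factor of B cells and neural crest, had 1206 and 1193 against 240.3 and 248 (log2 fold change -2.29, SE 0.07, adjusted p = 1.44e-26). In each of these 3 genes both mutated libraries lay below both wild-type libraries, which the choice of these strongest genes required; over all tested genes the wild-type and mutated libraries did not overlap in 65.5%, and over the called genes in 99.3%. Pde4b, a phosphodiesterase that degrades cyclic AMP, had 784 and 801 against 193 and 220.5 (log2 fold change -1.94, SE 0.10, adjusted p = 7.52e-19); the control line had means of 57.2 without and 734 with IAA. Serpine2, a secreted protease inhibitor, had 216 and 225 against 59.6 and 56.3 (log2 fold change -1.91, SE 0.15, adjusted p = 1.27e-13). Grin2a, a subunit of the NMDA-type glutamate receptor, had 149 and 139 against 41.8 and 40.5 (log2 fold change -1.78, SE 0.19, adjusted p = 8.29e-10), and the control line with IAA had a mean of 40.4. The mutated libraries thus matched the control line with IAA in level at Grin2a, and lay between the untreated and the treated control line at Pde4b. Rin3, a Rab5 exchange factor, went the same way with 114 and 106 against 28.2 and 32.6 (log2 fold change -1.82).

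The 12 strongest higher genes with a mean of at least 50 had log2 fold changes of 1.39 to 2.49, against -3.27 to -1.78 for the 12 strongest lower ones, and 4 of them are transcripts without a given name. Vmn2r1, a vomeronasal receptor gene, had 28.0 and 36.4 normalized reads in the wild-type libraries and 189 and 179 in the mutated libraries (log2 fold change 2.49, SE 0.18, adjusted p = 2.56e-14). On the list of olfactory and vomeronasal receptors as a whole, 33 genes were tested, and 5 were lower, among them Olfr1459 (-1.22) and Olfr153 (-1.14), and 4 higher, shares below those of all tested genes (18.4% and 16.3%). Rgs22, a regulator of G-protein signalling, had 161 and 190.4 against 543 and 563 (log2 fold change 1.65, SE 0.09, adjusted p = 1.72e-17). Igsf21, a synaptic adhesion protein of the immunoglobulin superfamily, had 106 and 116 against 329 and 348 (log2 fold change 1.61, SE 0.11, adjusted p = 1.25e-14). At Rgs22 and Igsf21 the mutated libraries also lay above all 4 control libraries. Cdh23, a cadherin of the tip links of hair cells, had 56.0 and 59.9 against 159 and 154 (log2 fold change 1.42, SE 0.15, adjusted p = 3.13e-10). Efhd1, a mitochondrial calcium-binding protein, had 62.1 and 77.0 against 194 and 179 (log2 fold change 1.42, SE 0.14, adjusted p = 8.87e-11). Olah, a thioesterase that ends fatty acid synthesis at medium length, had 21.9 and 24.6 against 70.0 and 80.1 (log2 fold change 1.65, SE 0.21, adjusted p = 2.76e-08). For Rgs22, Cdh23 and Olah the wild-type libraries also lay below the control line with IAA, whose means were 257, 100.1 and 46.6, and the untreated control line was at 413, 172 and 92.0. Atxn1l, a partner of the repressor Capicua, had 28.9 and 41.7 against 103 and 122.6 (log2 fold change 1.67).

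**Figure D1:**
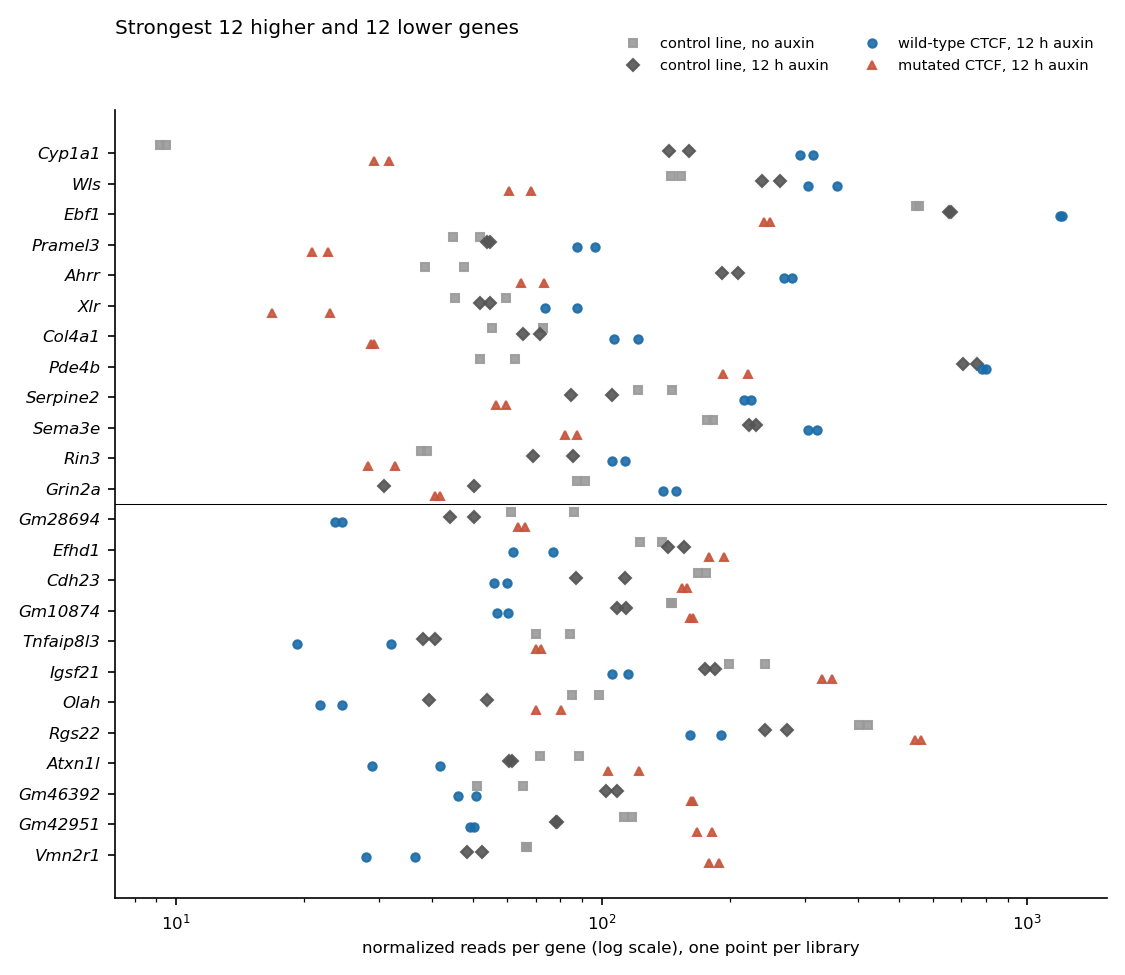
Normalized reads per gene (log scale) in each of the 8 libraries for the 12 lowest and 12 highest log2 fold changes among called protein-coding and lncRNA genes with a mean of at least 50; one symbol is one library. The mutated and wild-type libraries do not overlap in any row, which the choice of rows required, and the control libraries show where each gene lay without overexpressed wild-type or mutated CTCF.

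Functional groups were compared by how many members were called in each direction and by their median, beside the background of 18.4% lower and 16.3% higher and the median of -0.0087. Glycolysis and hypoxia genes, p53 targets, ribosomal protein genes, NRF2 targets and neural markers had more than 50% of their tested members lower. Fitted without the mean-variance trend, which left 11.4% of all tested genes lower, these counts were 17 of 34, 12 of 29, 6 of 74, 8 of 29 and 4 of 11. Genes of the ATF4 stress response, mitosis and cohesin had a larger share of members higher than the background. Without the mean-variance trend, limma called no cohesin gene. Lists of mitochondrial ribosomal proteins, oxidative phosphorylation and DNA replication had medians of 0.00, 0.00 and 0.01 on the log2 scale: 6 of 74 mitochondrial ribosomal protein genes were lower and 5 higher, and of 52 DNA replication genes 7 were lower and 9 higher.

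**Figure D2:**
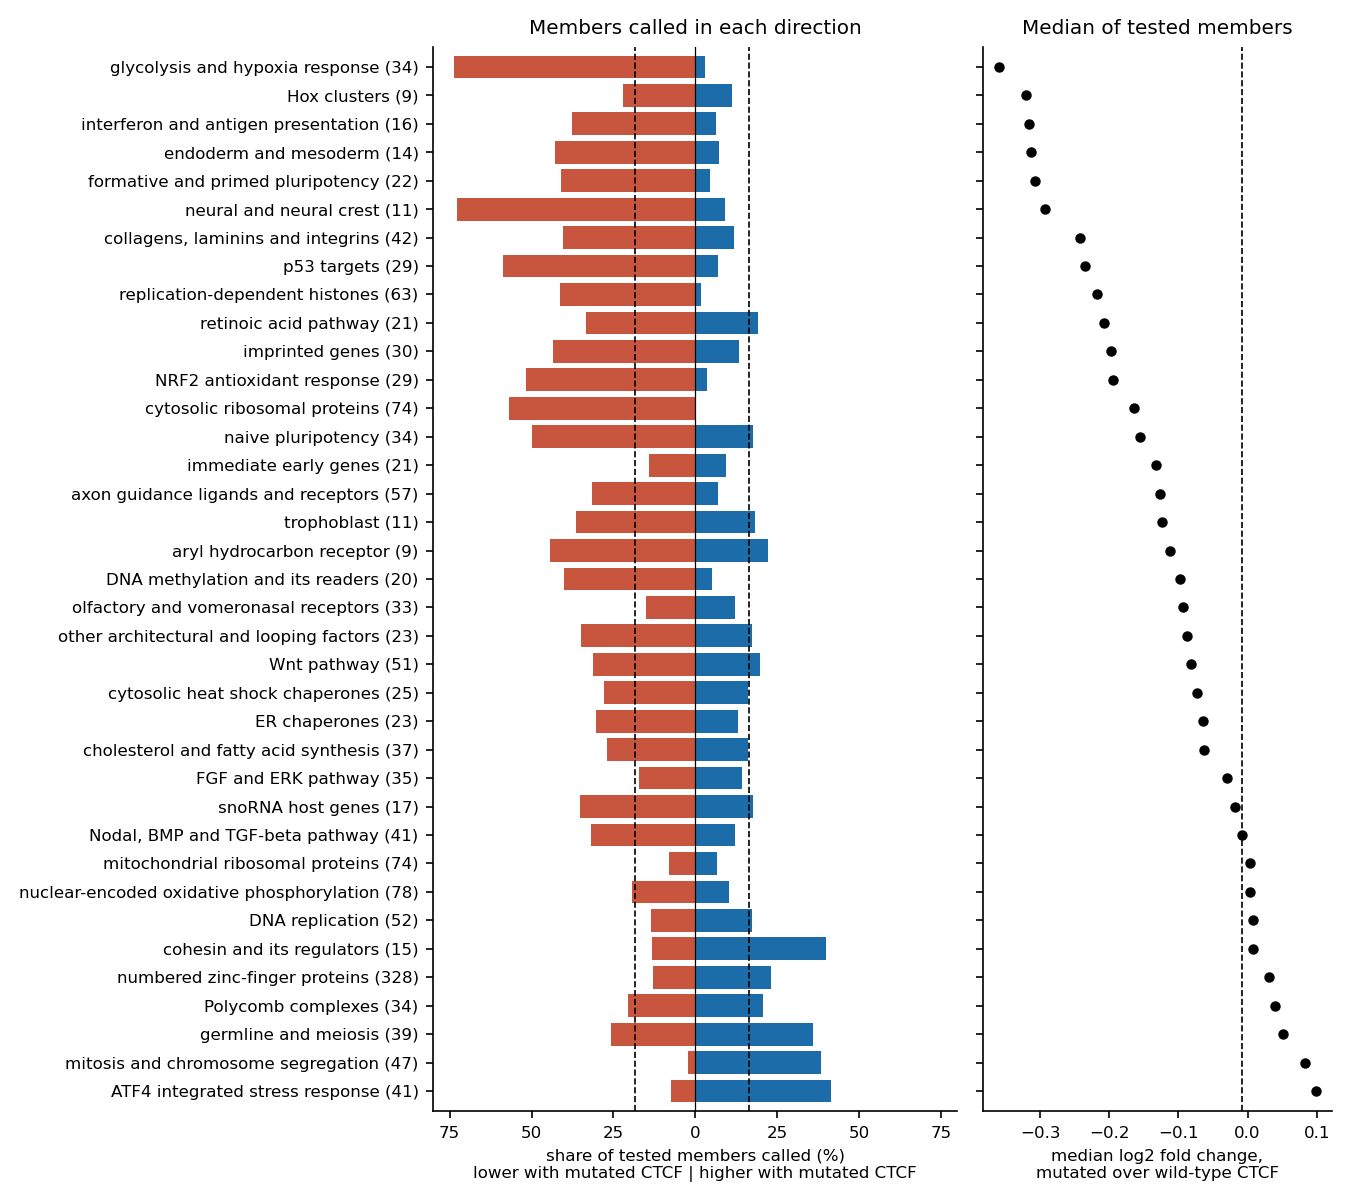
Share of tested members called lower (bars to the left) or higher (bars to the right) with mutated CTCF. Gene lists with at least 9 tested members are drawn, with that number in brackets. Points give the median log2 fold change of the list, and dashed lines mark all tested genes. Among the lists drawn, glycolysis and hypoxia genes stand at the low end with a median of -0.36, and the ATF4 list at the high end with 0.10.

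The aryl hydrocarbon receptor is a ligand-activated transcription factor that pairs with ARNT, binds a short response element with the core GCGTG and switches on enzymes that clear foreign and endogenous aromatic compounds. Its repressor Ahrr is itself one of its targets. Of 14 genes on the list 11 were listed and 9 tested, and 4 were lower and 2 higher. The 3 classic targets had the largest differences of the list. Ahrr (ENSMUSG00000021575.16, chromosome 13, 74211118 to 74292331, GRCm38, protein-coding) had 268 and 280.3 normalized reads in the wild-type libraries and 64.8 and 73.2 in the mutated libraries (log2 fold change -1.98, SE 0.14, adjusted p = 2.92e-14). Cyp1b1, a sister enzyme of Cyp1a1, rested on few reads, with 48, 36, 4 and 2 recovered reads in wild-type replicates 1 and 2 and mutated replicates 1 and 2 (log2 fold change -3.39, SE 0.45, adjusted p = 1.26e-07). Cyp1a1, Cyp1b1 and Ahrr had means of 9.34, 2.14 and 42.9 normalized reads in the untreated control line and of 152, 19.3 and 200.4 in the control line with IAA. So the mutated libraries lay nearer to the untreated control than to the treated one at all 3 genes, and the wild-type libraries above both. The receptor gene Ahr had 907 and 899 against 829.6 and 841 and was not called (log2 fold change -0.11, SE 0.06, adjusted p = 0.141). Its partner Arnt had 3499 and 3381 against 3994 and 3987 and was slightly higher (log2 fold change 0.21, SE 0.04, adjusted p = 4.25e-05), and the target Tiparp was not called (log2 fold change -0.05, adjusted p = 0.305). Nqo1, a quinone reductase shared with the NRF2 list, had 687 and 794 against 470.2 and 499 (log2 fold change -0.61, SE 0.07, adjusted p = 2.28e-08).

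The promoter of Ahrr is shown because this gene is both a target and an inhibitor of the receptor. It is the RefSeq sequence of GRCm38.p6 for the 250 bases before the start, chr13:74292332-74292581 on the minus strand, written 5′ to 3′, with each GCGTG in capitals.
Ahrr: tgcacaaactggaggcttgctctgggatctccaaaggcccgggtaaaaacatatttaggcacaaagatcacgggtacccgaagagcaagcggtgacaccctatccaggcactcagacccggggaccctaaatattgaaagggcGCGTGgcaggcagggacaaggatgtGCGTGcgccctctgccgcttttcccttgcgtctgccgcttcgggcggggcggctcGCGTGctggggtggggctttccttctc
GCGTG occurred 3 times on the printed strand and 0 times on the other. This pentamer is common: it was found on either strand in 35.2% of the 27025 RefSeq promoters of 300 bases (250 before to 50 after the start) and in 54.2% of those of tested genes, and in 5 of the 7 promoters of the list. A match describes the letters only.

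Wnt proteins are lipid-modified by Porcn, carried by Wls, received by Frizzled and Ror receptors and amplified by R-spondins, and the nuclear TCF and LEF factors act on their targets with beta-catenin. In this medium GSK3 is inhibited in every group. Of 71 genes on the list 56 were listed and 51 tested, and 16 were lower and 10 higher, 7 of the lower ones at least 2-fold. The lowest fold changes of the list were those of Wls, given above, and Porcn. Porcn (ENSMUSG00000031169.13, chromosome X, 8193848 to 8206525, GRCm38, protein-coding), the acyltransferase, had 62.9 and 80.2 normalized reads against 12.5 and 14.8 (log2 fold change -2.30, SE 0.23, adjusted p = 1.68e-10). Wls and Porcn, which act in Wnt secretion, were thus both over 4-fold lower, and Porcn rests on fewer than 100 reads per library. Among ligands, Wnt7b had 34, 29, 7 and 8 recovered reads in wild-type replicates 1 and 2 and mutated replicates 1 and 2 (log2 fold change -1.87, SE 0.33, adjusted p = 1.74e-05), and the agonist Rspo2 had 39, 26, 8 and 8 (log2 fold change -1.80, SE 0.33, adjusted p = 3.71e-05). Both rest on few reads. The receptor Ror1 had 253 and 252 normalized reads against 86.7 and 100.8 (log2 fold change -1.42, SE 0.13, adjusted p = 3.75e-11), and the control line with IAA had a mean of 88.8. Among nuclear factors, Lef1 had 341 and 368 against 138 and 152 (log2 fold change -1.28, SE 0.10, adjusted p = 2.08e-13), Tcf7l2 was lower by a smaller step (log2 fold change -0.43) and Tcf7 was higher (0.30). Known targets of the pathway on the list divided. Notum, a secreted Wnt deacylase, had 232 and 234 against 139 and 149 (log2 fold change -0.69, SE 0.12, adjusted p = 1.50e-05), and Sp5, a transcription factor, had 83.1 and 95.2 against 49.1 and 53.4 (log2 fold change -0.78, SE 0.20, adjusted p = 0.00162). Axin2, a scaffold of the beta-catenin destruction complex, had 1230.1 and 1303 against 1209.9 and 1225 and was not called (log2 fold change -0.06, SE 0.06, adjusted p = 0.458), and Znrf3, a ligase that removes Frizzled receptors, was higher (log2 fold change 0.12). Among the higher members, Sfrp1, which encodes a secreted Frizzled-related protein, had 1563 and 1661 against 2154 and 2348 (log2 fold change 0.48, SE 0.05, adjusted p = 3.23e-10), and Dkk3, a member of the Dickkopf family, had 358 and 395 against 523 and 582 (log2 fold change 0.55, SE 0.08, adjusted p = 8.76e-07). Lgr4, an R-spondin receptor, was also higher (log2 fold change 0.26). The median of the tested list was -0.08.

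Retinoic acid acts through RAR and RXR receptors and induces Rarb, Stra6 and Stra8, of which Stra6 encodes a receptor that takes up vitamin A from its carrier in blood. Of 26 genes on the list 22 were listed and 21 tested, and 7 were lower and 4 higher, with a median of -0.21. By library, the list's median relative to each gene's mean was 0.0031 and 0.08 in the wild-type libraries and -0.21 and 0.02 in the mutated libraries, so mutated replicate 2 lay above wild-type replicate 1. Rarb, a receptor and target, had 403 and 408 normalized reads in the wild-type libraries and 171 and 160.2 in the mutated libraries (log2 fold change -1.29, SE 0.09, adjusted p = 3.19e-15). Its level was 277 in the untreated and 601 in the treated control line. The receptor Rarg had 303 and 361 against 161 and 161 (log2 fold change -1.03, SE 0.11, adjusted p = 1.32e-09). Stra8, a gatekeeper of meiosis, had 427 and 409.7 against 235 and 220.5 (log2 fold change -0.87, SE 0.08, adjusted p = 1.10e-11), and its control means were 381 without and 906 with IAA. For Rarb and Stra8 the mutated libraries were thus lowest of the 4 groups and the treated control highest. Stra6 rested on 24, 22, 6 and 5 recovered reads in wild-type replicates 1 and 2 and mutated replicates 1 and 2 (log2 fold change -1.82, SE 0.36, adjusted p = 9.91e-05). Higher members were of other roles: the corepressor Nrip1 had 2709 and 2879 against 3501 and 3756 (log2 fold change 0.38, SE 0.04, adjusted p = 2.21e-09), and the retinol dehydrogenase Rdh11 had 522 and 507 against 692 and 719.7 (log2 fold change 0.45, SE 0.07, adjusted p = 1.21e-06).

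**Figure D3:**
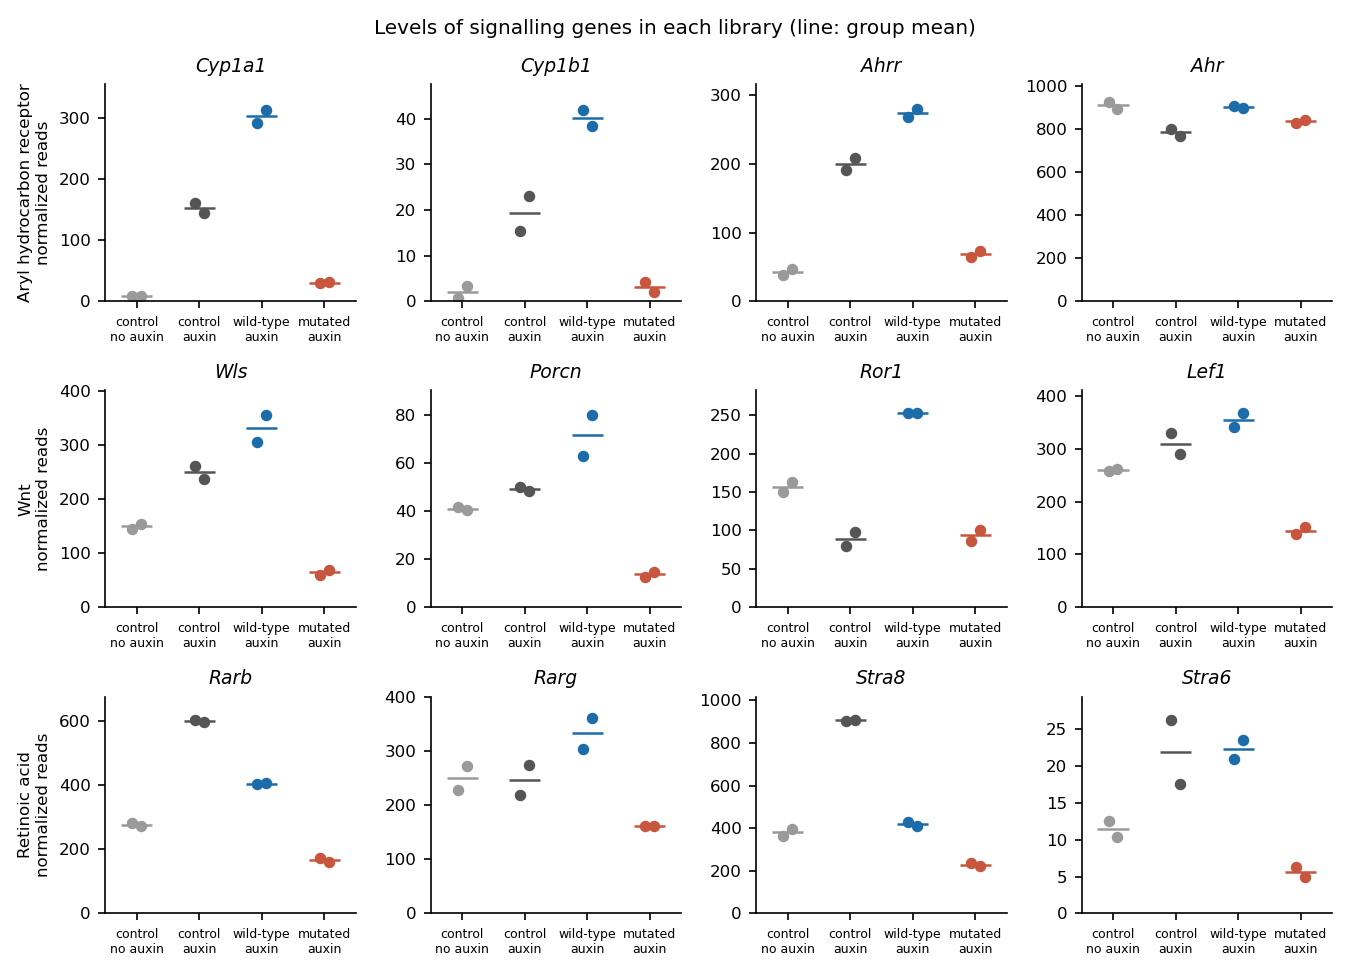
Normalized reads in each library (points, 2 per group) with group means (lines) for genes of the aryl hydrocarbon receptor, Wnt and retinoic acid lists; each panel has its own axis from 0. The mutated libraries lie below the wild-type libraries without overlap in every panel, as in 65.5% of all tested genes in either direction, and only Ahr was not called.

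Under low oxygen the factors HIF1A and EPAS1 escape hydroxylation by Egln enzymes and switch on glucose uptake, glycolysis and lactate export through elements with the core ACGTG. Of 35 genes on the glycolysis and hypoxia list 34 gene IDs were measured, with Aldoa present as 2 IDs, and 25 were lower and 1 was higher, with a median of -0.36. Apart from the list of fibroblast markers, of which 3 were tested, this was the lowest median of the lists, and the share lower, 73.5%, compares with 18.4% of all genes. In transport, the glucose carrier Slc2a1 had 2044 and 2191 normalized reads in the wild-type libraries and 1231 and 1322 in the mutated libraries (log2 fold change -0.73, SE 0.05, adjusted p = 8.81e-15). The lactate exporter Slc16a3 had 121 and 162 against 62.7 and 79.1 (log2 fold change -0.98, SE 0.17, adjusted p = 2.37e-05). Slc2a3, a further glucose carrier with more reads, had 5843 and 6421 against 5635 and 5933 and was not called (log2 fold change -0.08, SE 0.04, adjusted p = 0.0901). So 2 of the 3 carriers on the list were lower. Among glycolytic enzymes, Pfkl, the liver form of phosphofructokinase, had 273 and 317 against 120.2 and 155 (log2 fold change -1.10, SE 0.12, adjusted p = 8.65e-10). Ldha (ENSMUSG00000063229.15, chromosome 7, 46841475 to 46855627, GRCm38, protein-coding), which makes lactate, had 1164 and 1245 against 685 and 792 (log2 fold change -0.71, SE 0.06, adjusted p = 9.18e-12). Pgk1 (ENSMUSG00000062070.12, chromosome X, 106187100 to 106203699, GRCm38, protein-coding), a kinase that makes ATP in glycolysis, had 1634 and 1852 against 1102 and 1187 (log2 fold change -0.60, SE 0.06, adjusted p = 2.05e-10). Pkm, Eno1 and Gapdh, further steps of the pathway, were lower by less, with log2 fold changes of -0.46, -0.28 and -0.31. The enzyme that was higher was Pfkm, the muscle form of phosphofructokinase (log2 fold change 0.39, adjusted p = 0.0134), whose call was lost without mutated replicate 2. Pfkp, the platelet form and the one with the most reads, had 4978 and 5191 against 4735 and 4929 and was not called (log2 fold change -0.07, SE 0.04, adjusted p = 0.117).

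Members of the hypoxia response outside glycolysis were lower or not called. Bnip3 (ENSMUSG00000078566.8, chromosome 7, 138890836 to 138909519, GRCm38, protein-coding), a receptor for the removal of mitochondria, had 271 and 291 normalized reads against 112 and 125 (log2 fold change -1.24, SE 0.11, adjusted p = 1.67e-11). Egln3, a prolyl hydroxylase that is itself induced by low oxygen, had 160.0 and 153 against 88.8 and 102 (log2 fold change -0.71, SE 0.15, adjusted p = 1.55e-04), and its relative Egln1 had 629 and 657 against 407 and 420.2 (log2 fold change -0.63, SE 0.07, adjusted p = 2.26e-09). P4ha1, a collagen prolyl hydroxylase, had 1559.7 and 1477 against 963 and 947 (log2 fold change -0.67, SE 0.05, adjusted p = 1.92e-13). Of the 2 factors, Epas1 was lower with 546 and 570.2 against 406 and 461 (log2 fold change -0.37, SE 0.08, adjusted p = 2.15e-04). Hif1a had 2687 and 2850.0 against 2633 and 2730.5 and was not called (log2 fold change -0.05, SE 0.04, adjusted p = 0.437). P4ha2, Ero1l and Mxi1 were not called either (log2 fold changes -0.62, -0.08 and 0.02, adjusted p = 0.173, 0.259 and 0.792). By library, the median of the list relative to each gene's mean over the 8 libraries was 0.19 and 0.27 in the wild-type libraries, -0.21 and -0.09 in the mutated libraries and between -0.11 and 0.01 in the 4 control libraries. Against the control line with IAA, whose libraries both comparisons share, the list's median was 0.24 in the wild-type line and -0.10 in the mutated line. Leaving out any 1 of the 4 libraries gave 22 to 27 members lower, and correction for GC content and gene length gave 26.

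The promoters of Ldha, Bnip3 and Pgk1 are shown as 3 members of this group that were lower by 0.60 to 1.24 on the log2 scale. They are RefSeq sequences of GRCm38.p6 for the 250 bases before each start, at chr7:46845554-46845803 (plus strand), chr7:138909507-138909756 (minus strand) and chrX:106186850-106187099 (plus strand), written 5′ to 3′ in the gene's direction, with ACGTG and its reverse complement CACGT in capitals. The RefSeq start of Ldha lies inside the GENCODE gene printed above, so its stretch lies within that gene, and the stretch of Bnip3 overlaps the 5′ end of its GENCODE gene.
Ldha: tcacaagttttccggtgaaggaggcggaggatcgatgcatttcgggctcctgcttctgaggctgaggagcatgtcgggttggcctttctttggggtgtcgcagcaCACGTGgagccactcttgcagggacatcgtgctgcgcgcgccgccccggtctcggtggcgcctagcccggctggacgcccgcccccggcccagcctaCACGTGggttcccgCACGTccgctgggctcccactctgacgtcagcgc
Bnip3: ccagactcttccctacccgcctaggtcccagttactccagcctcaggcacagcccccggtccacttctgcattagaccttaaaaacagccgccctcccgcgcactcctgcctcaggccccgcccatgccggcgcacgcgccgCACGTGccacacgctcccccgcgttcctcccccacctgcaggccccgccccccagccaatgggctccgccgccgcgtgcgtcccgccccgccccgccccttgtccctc
Pgk1: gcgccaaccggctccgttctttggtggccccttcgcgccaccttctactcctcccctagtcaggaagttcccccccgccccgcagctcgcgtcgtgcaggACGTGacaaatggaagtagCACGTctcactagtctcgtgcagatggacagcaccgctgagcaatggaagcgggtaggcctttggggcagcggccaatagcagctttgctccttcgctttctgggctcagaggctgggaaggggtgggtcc
ACGTG was present in 23 of the 30 promoters of the list (76.7%) and in 17 of the 23 promoters of its lower members (73.9%), against 28.7% of the promoters of all tested genes and 21.8% of all 27025 promoters, each counted on both strands of the 300 bases. Over all genes the share hardly varied with the call: 30.8% of lower, 28.0% of higher and 28.3% of uncalled genes held it.

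p53 is a transcription factor that halts the cell cycle or starts apoptosis after damage, and in embryonic stem cells part of its targets are transcribed without added stress. All 29 genes of the target list were tested, and 17 were lower and 2 higher, with a median of -0.24. Among genes of apoptosis, Bbc3, which encodes PUMA, had 101.4 and 125 normalized reads against 59.6 and 72.2 (log2 fold change -0.77, SE 0.16, adjusted p = 2.82e-04). Eda2r, a death receptor, had 2965 and 2976 against 2088 and 2088 (log2 fold change -0.51, SE 0.04, adjusted p = 1.02e-12). Among genes of the cycle, Plk2, a polo-like kinase, had 414 and 412 against 213 and 199.7 (log2 fold change -0.998, SE 0.09, adjusted p = 2.20e-11). At these 3 called genes the mutated libraries did not overlap the wild-type libraries, as at 99.3% of all called genes. Ccng1, cyclin G1, had 2147 and 2399 against 1602 and 1717 (log2 fold change -0.45, SE 0.05, adjusted p = 2.94e-09). The cell cycle inhibitor Cdkn1a had 1375 and 1350.1 against 1157 and 1161 (log2 fold change -0.23, SE 0.05, adjusted p = 6.24e-04), and Mdm2, the ligase that degrades p53, had 4139 and 4265 against 3818 and 3661 (log2 fold change -0.17, SE 0.04, adjusted p = 6.04e-04). These last differences were small. The strongest exception was Rrm2b, the p53-induced subunit of ribonucleotide reductase, with 426 and 420.4 against 702 and 658 (log2 fold change 0.68, SE 0.07, adjusted p = 5.07e-10). The list's median for the control line with IAA against that without was -0.39; with wild-type CTCF against the control line with IAA it was 0.37, and with mutated CTCF 0.08, and these comparisons share libraries. Leaving out 1 library gave 15 to 18 members lower.

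ATF4 is made when translation is limited and switches on amino acid synthesis, transfer RNA synthetases and its own brakes. Of 42 genes on the list 41 were tested, and 17 were higher and 3 lower, with a median of 0.10. Chac1, which degrades glutathione, had 85.7 and 82.4 normalized reads against 140.0 and 149 (log2 fold change 0.78, SE 0.15, adjusted p = 6.83e-05). Nupr1, a stress-induced chromatin protein, had 162 and 195 against 246 and 266 (log2 fold change 0.52, SE 0.11, adjusted p = 3.46e-04). Gpt2, a mitochondrial transaminase, had 1179 and 1247 against 1719.8 and 1727 (log2 fold change 0.51, SE 0.05, adjusted p = 1.21e-10). At these 3 called genes the libraries did not overlap, which holds for 99.3% of called genes. Trib3, a pseudokinase that restrains ATF4, had 207 and 220.4 against 288 and 291 (log2 fold change 0.44, SE 0.11, adjusted p = 0.00115), and Phgdh, the first enzyme of serine synthesis, had 484 and 508 against 592 and 656 (log2 fold change 0.33, SE 0.07, adjusted p = 3.49e-04). Members that were lower were Ddit4, an inhibitor of mTORC1, with 213 and 223 against 158 and 151 (log2 fold change -0.49, SE 0.12, adjusted p = 8.38e-04), Stc2 and Atf5. Ddit4 is also known as a hypoxia-induced gene. The count of higher members fell to 9 without wild-type replicate 1, whose median over the list (-0.08 relative to each gene's mean) was the lowest of the 4 libraries compared.

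**Figure D4:**
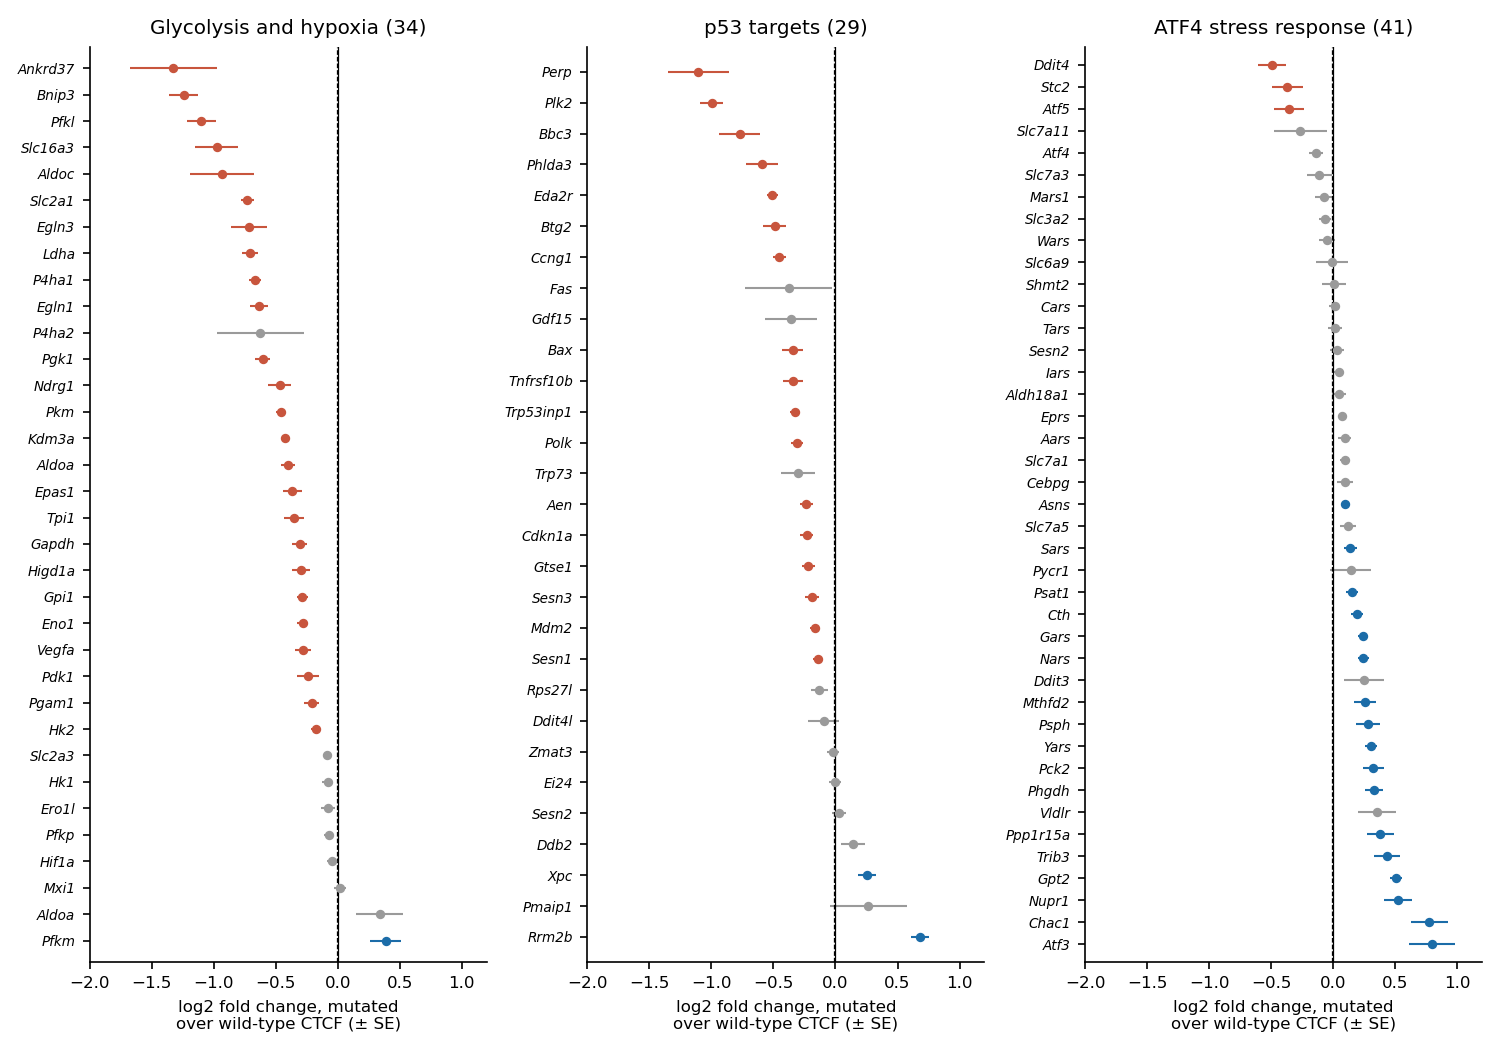
Log2 fold change of each tested member of the glycolysis and hypoxia, p53 and ATF4 lists, mutated over wild-type CTCF, with bars of 1 SE; red is called lower, blue called higher and grey not called, and the dashed line is the median of all tested genes. The first list lies almost wholly below 0, with 25 of 34 members called lower, while 17 of 41 ATF4 members are called higher.

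NRF2 is released by oxidants and activates genes of glutathione, thioredoxin and NADPH supply. All 29 genes of its list were tested, and 15 were lower and 1 higher, with a median of -0.19. Gstm1, a glutathione transferase, had 231 and 260.0 normalized reads against 156 and 161 (log2 fold change -0.63, SE 0.12, adjusted p = 4.87e-05). Srxn1, sulfiredoxin, had 616 and 685 against 483 and 534 (log2 fold change -0.36, SE 0.08, adjusted p = 2.63e-04), and the NADPH-making enzyme Me1 had 3658 and 3718 against 2974 and 3042 (log2 fold change -0.29, SE 0.04, adjusted p = 1.35e-07). The member that was higher was Abcc1, an exporter of glutathione conjugates, with 2936 and 2979 against 3454 and 3566 (log2 fold change 0.25, SE 0.04, adjusted p = 5.39e-06). Gclc and Gclm, of glutathione supply, were not called (log2 fold changes 0.05 and -0.02, adjusted p = 0.446 and 0.809). Hmox1 (-0.26, adjusted p = 0.059), Slc7a11 (-0.26, adjusted p = 0.365) and Nfe2l2, the gene of NRF2 itself (-0.02, adjusted p = 0.775), were not called either. Without wild-type replicate 2 the count of lower members was 7, and without mutated replicate 1 it was 6.

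Groups of short, highly transcribed genes shifted by small steps that followed single libraries. Of 74 cytosolic ribosomal protein genes 42 were lower and 0 higher, with a median of -0.16; without the mean-variance trend 6 were lower, and with DESeq2 25. Rplp0, a protein of the ribosomal stalk, had 2031 and 2566 normalized reads against 1607 and 1846 (log2 fold change -0.41, SE 0.07, adjusted p = 3.79e-06). The median of the list relative to each gene's mean was 0.08 and 0.24 in wild-type replicates 1 and 2 and -0.00 and 0.03 in the mutated libraries. Without wild-type replicate 2, 16 ribosomal protein genes were lower and 1 higher, without mutated replicate 1 the lower count was 25, and corrected for GC content and length it was 21, with 4 higher. Of 63 replication-dependent histone genes, whose transcripts are made in S phase and lack poly(A) tails, 26 were lower and 1 higher, with a median of -0.22. H2bc13 had 327 and 418 against 243 and 234 (log2 fold change -0.63, SE 0.10, adjusted p = 1.52e-06), and H2bc9 had 243 and 331 against 172 and 201 (log2 fold change -0.61, SE 0.12, adjusted p = 6.83e-05); both are near-identical in sequence to other H2B genes. The histone list stood at -0.15 and 0.17 in the wild-type libraries, at -0.30 and -0.14 in the mutated libraries and at 0.25 and 0.22 in the control line with IAA. The wild-type pair thus differed within itself by more than mutated replicate 2 differed from wild-type replicate 1. Without wild-type replicate 1, 44 histone genes were lower, without wild-type replicate 2 it was 8, without mutated replicate 1 it was 14, and with the GC and length correction it was 11.

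Genes of mitosis went the other way, by small steps. All 47 were tested, and 18 were higher and 1 lower, with a median of 0.08. Cenpf, a kinetochore protein, had 4039 and 4018 normalized reads against 4965 and 4908 (log2 fold change 0.29, SE 0.04, adjusted p = 2.07e-08). Ccnb2, cyclin B2, had 838 and 842 against 1001 and 1063 (log2 fold change 0.30, SE 0.06, adjusted p = 1.09e-04), and Tpx2, a spindle assembly factor, had 3823 and 3822 against 4406 and 4533 (log2 fold change 0.23, SE 0.04, adjusted p = 9.79e-06). The member that was lower, Spc24, is a subunit of the NDC80 complex, with 457 and 485 against 359 and 387 (log2 fold change -0.34, SE 0.08, adjusted p = 0.0014); its partner Nuf2 was higher (log2 fold change 0.27). Without wild-type replicate 1 or without mutated replicate 2 the count of higher members was 8.

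**Figure D5:**
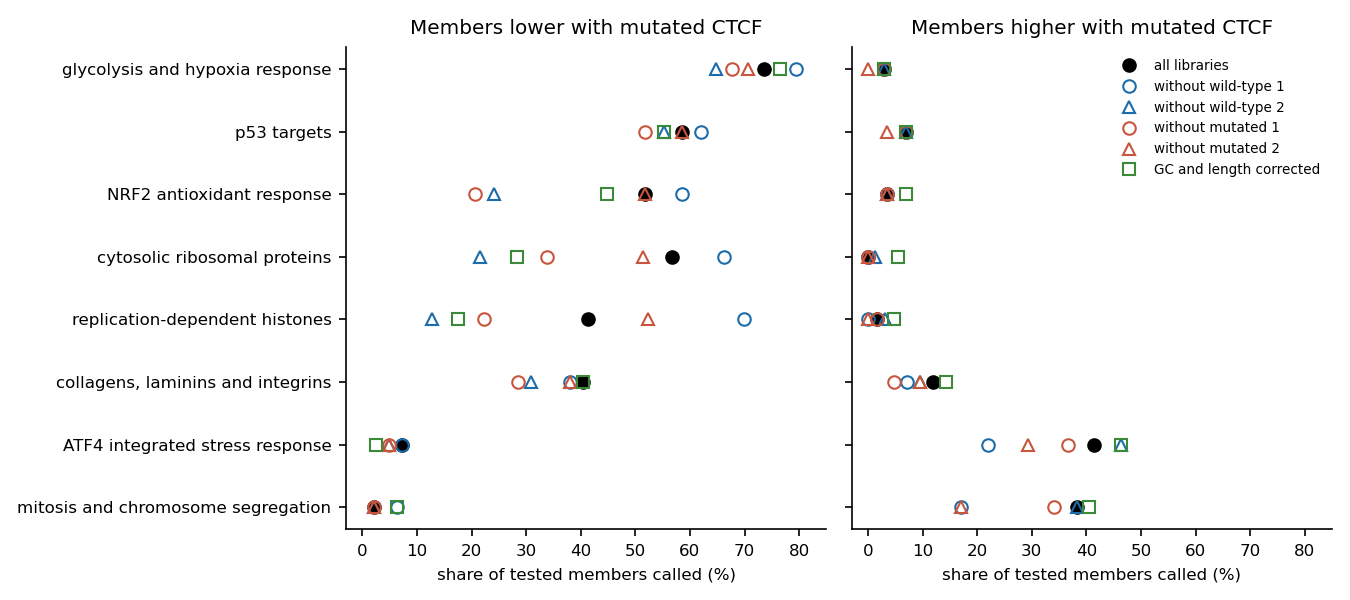
Share of tested members called lower (left) and higher (right) with mutated CTCF for 8 gene lists, with all libraries (filled), with each of the 4 libraries left out in turn (open) and with GC content and length corrected (squares). The glycolysis and hypoxia and p53 lists keep more than 50% of their members lower in every setting shown, while the histone, ribosomal protein and NRF2 lists range widely with the library left out.

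Pluripotency genes differed little at the core factors Nanog and Pou5f1. Their levels covered a wide range, with 12.2 and 18.2 normalized reads in the wild-type libraries at Utf1 and 22333 and 22154 at Jam2. Of 34 naive pluripotency genes 17 were lower and 6 higher, with a median of -0.16. Nanog had 6424 and 6824 against 5697 and 5956 (log2 fold change -0.18, SE 0.04, adjusted p = 7.76e-05), and Zfp42, a naive marker, had 10741 and 10962 against 9507 and 9499 (log2 fold change -0.19, SE 0.03, adjusted p = 2.73e-06). Pou5f1, which encodes OCT4, had 1360.3 and 1532 against 1191 and 1344 (log2 fold change -0.19, SE 0.06, adjusted p = 0.0161), a call that was lost without wild-type replicate 2 and without mutated replicate 1. Larger differences lay at other members. Lin28a, an RNA-binding inhibitor of let-7 processing, had 316 and 289.9 against 162 and 173 (log2 fold change -0.85, SE 0.11, adjusted p = 5.72e-08). Dppa2, a chromatin factor of bivalent promoters, had 739 and 705 against 435 and 464 (log2 fold change -0.68, SE 0.07, adjusted p = 1.14e-10). Higher members were the factors Nr0b1, Klf4, Zfp57, Tbx3, Klf5 and Esrrb, by 0.08 to 0.30 on the log2 scale. The calls of Nr0b1 and Esrrb were lost without wild-type replicate 1, and that of Esrrb also without mutated replicate 2. Among the others, Klf4 had 1665 and 1772 against 2042 and 2141 (log2 fold change 0.28, SE 0.05, adjusted p = 1.07e-05).

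On each list of later stages and of other cell types more of the tested markers were called lower than higher. Of the markers, 19 of 34 of endoderm and mesoderm and 24 of 37 of neural tissue and neural crest were not listed, while 13 of 21 of trophoblast were. Of 26 formative and primed genes 22 were tested, and 9 were lower and 1 higher, with a median of -0.31. Zic2, a zinc-finger factor of the epiblast, had 437 and 435 normalized reads against 249 and 247 (log2 fold change -0.81, SE 0.08, adjusted p = 4.34e-10). Cdh2, N-cadherin, had 402 and 417 against 256 and 255 (log2 fold change -0.68, SE 0.09, adjusted p = 5.55e-08), and Otx2, a driver of the exit from naive pluripotency, had 68.2 and 70.6 against 38.7 and 44.5 (log2 fold change -0.73, SE 0.19, adjusted p = 0.00285). Fst, an activin antagonist, was the higher member (log2 fold change 0.61), and its call was lost without wild-type replicate 1 and without either mutated library. Of 34 endoderm and mesoderm genes 14 were tested, of which 6 were lower and 1 higher. Meis2, a homeobox cofactor, had 8322 and 8254 against 3519.9 and 3595 (log2 fold change -1.22, SE 0.03, adjusted p = 6.04e-27). Cdx1, a homeobox gene that responds to Wnt and retinoic acid, had 584 and 607 against 237 and 277 (log2 fold change -1.21, SE 0.08, adjusted p = 6.03e-15), and Kdr, a VEGF receptor, had 168 and 163 against 93.0 and 74.1 (log2 fold change -0.98, SE 0.15, adjusted p = 1.12e-06). Of 37 neural and neural crest genes 11 were tested, of which 8 were lower and 1 higher, a count of lower genes that was 5 without either mutated library. Onecut2, a neuronal and hepatic factor, had 330.5 and 299.5 against 166 and 169 (log2 fold change -0.90, SE 0.11, adjusted p = 7.11e-09). Of 21 trophoblast genes 11 were tested, with 4 lower and 2 higher; Elf3, an epithelial ETS factor, had 479 and 511 against 252 and 267 (log2 fold change -0.93, SE 0.09, adjusted p = 8.74e-11), and Tead4, a trophoblast regulator, was higher (log2 fold change 0.42). The 3 fibroblast markers measured, Fbln1, Col5a1 and Pdgfrb, were all lower, and their summed level was 2397 and 2416 normalized reads in the wild-type libraries, 1765 and 1981 in the mutated libraries, 1865 and 1822 in the untreated control and 2431 and 2402 in the treated control. Only 1 of the 3 was called without wild-type replicate 2 or without mutated replicate 1. Defining fibroblast genes such as Col1a1 and Dcn were not listed. The part of other cell types in the collagen and guidance results below was not tested.

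Genes of the extracellular matrix and of axon guidance had more members lower than higher, some by large steps. Of 50 collagen, laminin and integrin genes 42 were tested, and 17 were lower, 5 of them at least 2-fold, and 5 higher, with a median of -0.24; with DESeq2 on the recovered reads 11 were lower. Col4a1 and Col4a2, which share a bidirectional promoter and form the main collagen of basement membranes, went together: Col4a1 had 107 and 122 normalized reads against 29.3 and 28.7 (log2 fold change -1.94, SE 0.19, adjusted p = 7.62e-11), and Col4a2 had 69.1 and 77.0 against 29.3 and 38.6 (log2 fold change -1.10, SE 0.22, adjusted p = 1.64e-04). Col18a1, a basement membrane collagen that gives rise to endostatin, had 1122 and 1176 against 539 and 621 (log2 fold change -0.99, SE 0.07, adjusted p = 8.07e-15). Of the laminin chains, Lamb1 had 209 and 212 against 150.5 and 129 (log2 fold change -0.59, SE 0.11, adjusted p = 4.17e-05), while Lamc1 differed less (log2 fold change -0.20). Col27a1, a fibrillar collagen, had 90.0 and 81.3 against 38.7 and 31.6 (log2 fold change -1.27, SE 0.23, adjusted p = 2.79e-05), and the control line had means of 94.2 without and 7.47 with IAA, so both CTCF lines lay above the treated control. Higher members included Col13a1, a transmembrane collagen, with 197 and 202 against 269.6 and 312 (log2 fold change 0.54, SE 0.10, adjusted p = 2.51e-05), and Itga6, a laminin receptor (log2 fold change 0.18).

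Of 60 axon guidance ligands and receptors 57 were tested, and 18 were lower and 4 higher, with a median of -0.13. Sema3e, a class 3 semaphorin, had 305 and 319.9 normalized reads against 87.8 and 82.1 (log2 fold change -1.87, SE 0.11, adjusted p = 1.04e-16). Nrp1, a neuropilin receptor, had 56.8 and 51.4 against 14.6 and 14.8 (log2 fold change -1.81, SE 0.26, adjusted p = 5.40e-07). Among ephrins and their receptors, Efna5 had 282 and 316 against 172 and 160.2 (log2 fold change -0.84, SE 0.10, adjusted p = 1.08e-08), and Ephb1 had 981 and 1036 against 611 and 655 (log2 fold change -0.67, SE 0.07, adjusted p = 2.78e-10). The netrin receptor Unc5b had 457 and 514 against 287 and 317 (log2 fold change -0.68, SE 0.09, adjusted p = 4.39e-08), and the ligand Ntn1 had 3806 and 4009 against 2762 and 2819 (log2 fold change -0.48, SE 0.04, adjusted p = 2.86e-12). The 3 Slit and semaphorin ligands that were higher were Slit3, with 2681 and 2816 against 3572 and 3627 (log2 fold change 0.39, SE 0.04, adjusted p = 9.79e-10), Sema5b and Sema3f; Slit2 was lower (log2 fold change -0.31). Members of these lists are long, with a median of 113 kb for the matrix list and 108 kb for the guidance list. The median over all tested genes was 24.0 kb. In the longest quartile of all tested genes (58.99 to 4435 kb) 29.1% were lower and 21.6% higher. The counts of both lists are to be read beside these shares. Lower and higher calls were both more frequent among the longest genes than among the shortest, as given below.

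At imprinted genes, where 1 parental copy is silent and CTCF binding separates the copies at some loci, 30 of 44 genes were tested, and 13 were lower and 4 higher, with a median of -0.20. Mest, expressed from the paternal copy, had 59.4 and 76.0 normalized reads against 21.9 and 26.7 (log2 fold change -1.44, SE 0.24, adjusted p = 5.64e-06). Kcnq1, a potassium channel of a maternally expressed cluster, had 225 and 230.0 against 373 and 407 (log2 fold change 0.78, SE 0.10, adjusted p = 2.76e-08), while Kcnq1ot1, the antisense RNA of that locus, was lower (log2 fold change -0.21). The transcripts overlap, so their values depend on the strand setting of the counting. Grb10, an adaptor of growth factor receptors, had 2353 and 2449.9 against 3155 and 3206 (log2 fold change 0.41, SE 0.04, adjusted p = 5.51e-10). Meg3 and Mirg, RNAs of a maternally expressed cluster on chromosome 12, were both lower (log2 fold changes -0.26 and -0.29), but Rian, an RNA of the same cluster with more reads, had 5857 and 6089 against 5971 and 5822 and was not called (log2 fold change -0.02, SE 0.04, adjusted p = 0.731). The data do not separate parental copies.

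Germline genes split in both directions: of 43, 39 were tested, with 14 higher and 10 lower and a median of 0.05. Meiotic genes lay on both sides: Stra8 was lower, as given above, and Spo11, Sycp1 and Rec8 were not called. Dmc1, the meiotic recombinase, had 688 and 729 normalized reads against 1249 and 1281 (log2 fold change 0.84, SE 0.06, adjusted p = 3.70e-15), Stag3, a meiotic cohesin subunit, had 1112 and 1194 against 1528 and 1564 (log2 fold change 0.42, SE 0.06, adjusted p = 1.02e-07), and Sycp3, of the synaptonemal complex, had 224 and 247 against 303 and 332 (log2 fold change 0.43, SE 0.09, adjusted p = 3.39e-04). Genes of the piRNA pathway, which silences transposons, divided: Mael had 77.8 and 94.1 against 186 and 173 (log2 fold change 1.06, SE 0.15, adjusted p = 2.07e-07) and Mov10l1 90.9 and 100.6 against 169 and 162 (log2 fold change 0.79, SE 0.13, adjusted p = 7.87e-06), but Asz1 had 81.3 and 84.5 against 30.3 and 19.8 (log2 fold change -1.72, SE 0.21, adjusted p = 1.45e-08). The lower members included Dazl, and the higher ones Nanos3 (log2 fold change 0.32), both RNA-binding proteins of germ cells. Dazl had 1252 and 1422 against 660.3 and 677 (log2 fold change -0.995, SE 0.06, adjusted p = 5.73e-16). Prdm1, a transcriptional repressor, had 358 and 367 against 231 and 199 (log2 fold change -0.76, SE 0.10, adjusted p = 4.31e-08), and Sohlh2, a germ cell helix-loop-helix factor, had 900.5 and 910.4 against 549 and 537 (log2 fold change -0.74, SE 0.06, adjusted p = 3.63e-12). Among 328 numbered zinc-finger genes, a family of repressors with many members in gene clusters, 76 were higher and 42 lower, with a median of 0.03. Over all tested genes 16.3% were higher and 18.4% lower. The list had a median GC content of 42.9%. Of all tested genes in that GC quartile (41.9% to 45.5%), 20.8% were higher and 17.8% lower. With DESeq2 on the recovered reads the list's counts were 43 and 25, and after GC and length correction its lower count was 57.

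Genes that work with CTCF at loops differed little. Of 15 tested cohesin genes 6 were higher and 2 lower, with a median of 0.01; DESeq2 gave the same counts, and limma without the mean-variance trend called none. Smc3, a ring subunit, had 5271 and 5200.4 normalized reads against 5821 and 5719 (log2 fold change 0.14, SE 0.04, adjusted p = 0.00165), and Pds5a, a regulator of release, had 9878 and 10031 against 10793 and 10815 (log2 fold change 0.12, SE 0.03, adjusted p = 0.00211). Hdac8, which deacetylates SMC3, had 957 and 996 against 785 and 837 (log2 fold change -0.27, SE 0.06, adjusted p = 6.64e-04). Stag1 was called lower by 0.08 on the log2 scale but was higher after GC and length correction. Without wild-type replicate 1, 3 cohesin genes were higher. Of 23 other architectural factors 8 were lower and 4 higher: Satb1, a chromatin organizer, had 462 and 480.3 against 656 and 627 (log2 fold change 0.44, SE 0.07, adjusted p = 1.54e-06). Brd2, a bromodomain protein found at CTCF sites, had 2362 and 2519 against 1933 and 1959 (log2 fold change -0.33, SE 0.05, adjusted p = 4.60e-07). Of 20 tested genes of DNA methylation 8 were lower and 1 higher, counts of lower genes that were 4 without wild-type replicate 2 and 5 without mutated replicate 1. Tet2, a methylcytosine dioxygenase, had 11194 and 11282 against 9555 and 9692 (log2 fold change -0.22, SE 0.03, adjusted p = 1.42e-07), and Zfp57, which protects methylation at imprinted loci, had 2732 and 2639 against 3256 and 3274 (log2 fold change 0.28, SE 0.04, adjusted p = 6.05e-07).

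Differences were spread over all chromosomes, with the X chromosome apart in its share of lower genes. Of its 544 tested genes 27.9% were lower and 10.7% higher, against 18.1% and 16.4% on the autosomes, and 42 were at least 2-fold lower and 3 at least 2-fold higher. Of the 13 tested genes of the Y chromosome 5 (38.5%) were higher. One cluster on the X held several of the genes at least 2-fold lower. Pramel3 (ENSMUSG00000067360.12, chromosome X, 135302307 to 135312652, GRCm38, protein-coding), of a family expressed in germ cells and preimplantation embryos, had 87.4 and 96.3 normalized reads against 20.9 and 22.7 (log2 fold change -2.02, SE 0.21, adjusted p = 2.18e-10), and of the 7 other tested genes with starts within 250 kb of its start 6 were lower. Their log2 fold changes ran from -1.63 (Gm15020) over -1.47 (Gm15017), -1.38 (Gm15023), -1.24 (Gm15015) and -1.13 (Gm7903) to -1.07 (AV320801). The remaining neighbour, Gm5128, was not called (-0.63, adjusted p = 0.12). Genes of this cluster resemble each other in sequence, and reads could be shared between copies. Of 11 tested genes named Xlr or Pramel, a grouping made after their values were seen, 5 were lower; Xlr3a, Xlr4a, Xlr4b, Xlr5a, Xlr5b and Pramel1 were not called. Xlr, an X-linked gene of lymphoid and germ cells, had 73.4 and 87.7 against 23.0 and 16.8 (log2 fold change -1.98, SE 0.22, adjusted p = 2.00e-09). Pramel6 and Pramel7, relatives on chromosome 2, rested on few reads: 36, 23, 4 and 10 recovered reads in wild-type replicates 1 and 2 and mutated replicates 1 and 2 for Pramel6 (log2 fold change -1.94, SE 0.35, adjusted p = 2.70e-05), and 21, 17, 5 and 3 for Pramel7 (log2 fold change -1.96, SE 0.41, adjusted p = 1.93e-04).

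Among the 5 lowest and 5 highest genes, whose neighbours were examined, called neighbours went the way of the gene at some and against it at others, and their numbers are to be read beside the 34.7% of all tested genes that were called. Of 11 tested genes with starts within 250 kb of that of Ahrr, 7 were higher and 1 lower, among them Zfp72 (log2 fold change 0.46) and Ccdc127 (0.32). Of 15 around Cyp1a1, 2 were higher and 4 lower, with Csk, a kinase of the Src pathway (-0.40), and Edc3, a decapping factor (-0.12), the nearest of the lower ones and Cox5a, a subunit of the respiratory chain (0.30), among the higher ones. Rnf145 was lower beside Ebf1 (-0.33), and the called neighbours of Vmn2r1, Gm42951, Atxn1l and Rgs22 were higher, 7 in all, from 0.10 to 0.52. None of the 3 tested neighbours of Gm46392 was called by limma. Over the whole genome, adjacent tested genes with starts within 100 kb that were both called went the same way in 755 of 1113 pairs (67.8%), against 545 of 952 pairs (57.2%) with starts farther apart. Among the close pairs whose gene bodies do not overlap the share was 638 of 945 (67.5%).

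Gene length, GC content and biotype went with the calls. In the longest quartile of genes (58.99 to 4435 kb) 29.1% were lower and 21.6% higher, and in the shortest quartile 15.0% and 8.18%. Genes at least 2-fold lower had a median length of 49.6 kb and those at least 2-fold higher one of 20.7 kb. In the quartile with the highest GC content 6.48% were higher and 19.2% lower, with a median of -0.10. Of 82 lncRNA genes at bidirectional promoters 18.3% were higher and 1.22% lower, with a median of 0.27, and the 649 antisense genes had a median of 0.11. The 281 processed pseudogenes had a median of -0.17. The CTCF core motif, searched by its degenerate consensus on both strands, was found in 3.88% of all promoters. Among tested genes it was found in 5.77% of promoters of lower genes, 4.80% of those of higher genes and 5.70% of those of uncalled genes. The part of GC content and length in these differences was not tested beyond the corrected counts given above.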

How the data were processed

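Newly made RNA was measured by TT-seq in 8 libraries of 4 groups of 2, grouped by sample title. Trim Galore, STAR, featureCounts, DESeq2 and the build mm10 are named in the submitters' processing notes, with no versions or roles. The authors deposited normalized read counts per gene, a signal that, from the values, holds whole reads divided by 1 factor per library (100% of entries whole within 0.1 read). Annotation was GENCODE M21 on GRCm38.

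limma 3.58.1 (R 4.3.3) was fitted to log2(value + 1) of all 8 libraries with 1 coefficient per group and a mean-variance trend (4 residual degrees of freedom). Of 16940 genes, the 15818 with a mean of at least 10 over all 8 libraries were tested, with Benjamini-Hochberg adjustment at 0.05. This scale understates changes of low genes. The fit was tested on simulated data with the same dispersion for all genes and libraries. These data held no shifts of single libraries, so the test does not bear on such shifts. Depth was 15671114 to 21561141 recovered reads, and reads may include copies of 1 molecule.

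Named genes were the 12 highest and 12 lowest called protein-coding or lncRNA genes with a mean of at least 50 and no overlap between libraries, up to 4 such genes per list by size, members with a known key role, and neighbours within 250 kb of the first 5 at each end of the first set. Members and lists were chosen with earlier results of these data known. Lists by name take genes by symbol, and genes named like integrins that encode other proteins were removed. Alternatives were pseudocounts of 0.5 and 10, no minimum or a minimum mean of 50, median-of-ratios factors, equal totals, only the 4 libraries compared, no trend, the replicate block, each library left out, edgeR 4.0.16 and DESeq2 1.42.0 on the recovered reads and, chosen after seeing the data, a correction for GC content and gene length and blocks with a scaling or correction. The level of the Ctcf gene is not reported here.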

Additional observations from a re-analysis of the deposited data

How the results depend on the processing

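Of the 5489 genes called, 3777 to 4334 kept their call when 1 of the 4 libraries was left out, 5446 with edgeR, 3457 with DESeq2 and 3014 without the mean-variance trend, and none of these changed direction. The counts of higher and lower genes ran from 1789 to 2313 and from 1953 to 2963 over the libraries left out, and those at least 2-fold from 193 to 245 and from 360 to 500. Without the trend they were 1466 and 1797, and with DESeq2 1673 and 1787, with 109 at least 2-fold higher. A pseudocount of 10 gave 56 and 199 genes at least 2-fold higher and lower, since fewer low genes can then reach 2-fold. A minimum mean of 50, which left 11860 genes tested, gave 53 and 148. The share of higher genes among those called was 46.9%, and 39.2% to 54.2% over the libraries left out. Correction for GC content and gene length kept 4951 calls, turned 3, and gave 2999 higher and 2963 lower; Stag1 went from -0.08 to 0.037, also with the block. The cause of these shifts was not tested. The replicate numbers did not pair the libraries (correlation of deviations -0.0038 between the wild-type and mutated libraries), and with the replicate block 2845 genes were higher and 3136 lower, 194 and 416 of them at least 2-fold. Of 301 genes examined by name, none lost its call under the replicate block, 63 did without the trend, 40 with DESeq2 and 19 to 30 when 1 library was left out. Without the trend, 6 of 74 ribosomal protein genes and 17 of 34 glycolysis and hypoxia genes were lower. Genes near the minimum mean of 10 rest on few reads, which limits their precision.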

Other observations

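Several gene families outside the lists above were looked at after their values had been seen, and they are given as descriptions beside 18.4% lower and 16.3% higher over all tested genes. Of 47 tested potassium channel genes 11 were lower and 10 higher, of 47 genes of cilia and flagella 4 were lower and 11 higher, and of 7 Nlrp genes 3 were lower and 1 higher. Of 7 tested glutathione peroxidase genes, whose products reduce peroxides with glutathione, 5 were lower with mutated CTCF and 1 was higher. Gpx4, which protects membranes from lipid peroxides, had 631 and 763 normalized reads in the wild-type libraries and 439.9 and 461 in the mutated libraries (log2 fold change -0.62, SE 0.08, adjusted p = 2.20e-08). Gpx1, the cytosolic form, had 553 and 692 against 417 and 487 (log2 fold change -0.46, SE 0.09, adjusted p = 5.69e-05). Gpx6, of olfactory tissue, went the other way at a low level, with 12.2 and 9.63 against 32.4 and 30.6 (log2 fold change 1.45, SE 0.28, adjusted p = 7.14e-05). Of 13 tested ionotropic glutamate receptor genes 6 were lower and 2 higher. The AMPA-type subunit Gria3 had 233 and 245 against 108 and 111 (log2 fold change -1.12, SE 0.13, adjusted p = 2.67e-09), and the delta-type receptor Grid1 had 4743 and 4813 against 3313 and 3429 (log2 fold change -0.50, SE 0.04, adjusted p = 8.10e-14). The kainate-type subunits Grik4 and Grik5 were the higher ones (log2 fold changes 0.45 and 0.59). Of 20 tested nucleoporin genes 9 were higher and 2 lower, by small steps: Nup155, of the inner ring of the nuclear pore, had 3961 and 4015 against 4663 and 4656 (log2 fold change 0.22, SE 0.04, adjusted p = 5.64e-06).

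Other pathway lists had members called in both directions, beside the same 18.4% lower and 16.3% higher over all tested genes. Of 16 tested genes of interferon response and antigen presentation 6 were lower and 1 higher, and 4 were lower without wild-type replicate 1 or without mutated replicate 1. Ifitm1, a membrane protein also marked in germ cell precursors, had 361 and 451 normalized reads against 202 and 255 (log2 fold change -0.83, SE 0.12, adjusted p = 3.18e-07). Bst2, which tethers budding virions, was the higher one, with 11, 10, 26 and 42 recovered reads in wild-type replicates 1 and 2 and mutated replicates 1 and 2 (log2 fold change 1.63, SE 0.33, adjusted p = 1.56e-04). Of 37 tested genes of cholesterol and fatty acid synthesis 10 were lower and 6 higher. Sqle, of sterol synthesis, had 3931 and 4220.4 against 3094 and 3207 (log2 fold change -0.37, SE 0.04, adjusted p = 2.14e-09), and Acss2, which makes acetyl-CoA from acetate, had 1155 and 1139 against 1579 and 1582 (log2 fold change 0.46, SE 0.05, adjusted p = 8.63e-10). Of 34 tested Polycomb genes 7 were lower and 7 higher, shares near those of all tested genes. Aebp2, an accessory subunit of PRC2, had 6415 and 6627 against 4527 and 4391 (log2 fold change -0.55, SE 0.03, adjusted p = 3.37e-16), while Suz12, a core subunit, had 10578 and 10973 against 12079 and 12079.6 (log2 fold change 0.16, SE 0.03, adjusted p = 7.02e-05). Of 41 tested genes of the Nodal, BMP and TGF-beta pathways 13 were lower and 5 higher, and 6 were lower without mutated replicate 1. The coreceptor Tgfbr3 had 2541 and 2596 against 1594 and 1547 (log2 fold change -0.71, SE 0.05, adjusted p = 2.49e-15); its control means were 583 without and 3050.4 with IAA. The type II receptor Bmpr2 had 3664 and 3707 against 4309 and 4383 (log2 fold change 0.24, SE 0.04, adjusted p = 1.83e-06).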
